A study of Mus musculus with 16 samples.

Results

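The genes described here encode the 5 NF-κB subunits (Nfkb1, Nfkb2, Rel, Rela and Relb) and 5 inhibitors of the IκB family (Nfkbia, Nfkbib, Nfkbid, Nfkbie and Nfkbiz). They were chosen by gene symbol and make up 10 of the 22287 genes in the count table, and all 10 were among the 12514 genes that passed the filter on low counts. RNA-seq was performed on bone marrow derived macrophages (BMDMs) of C57BL/6J mice aged 8 weeks. Bone marrow cells were grown for 7 days with GM-CSF (GM) or M-CSF (M) on tissue-culture treated (TC) or untreated (noTC) dishes, and were then left at steady state or challenged with lipopolysaccharide (LPS) for 3 h. This gave 8 groups of 2 libraries, named by growth factor and dish (M-TC, M-noTC, GM-TC, GM-noTC), with -LPS added after a challenge. Per the study's methods, GM cultures were seeded at a higher cell density than M cultures, and the 2 growth factors were used at different concentrations. The labels name no genetic change in any group, and the methods do not say whether libraries with the same replicate number came from the same mouse, so the p-values measure the spread between these libraries.

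NF-κB subunits form dimers that bind κB sites in DNA, and in resting macrophages the IκB proteins hold most dimers in the cytoplasm. Ligation of Toll-like receptor 4 by LPS activates the IKK kinases, which mark IκBα for degradation and so release the dimers. Many genes of the system are themselves NF-κB targets, and the resynthesis of IκBα is the classical negative feedback of the pathway.

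Libraries held 17527802 to 31458363 counts, so that 3 counts were worth 0.0954 to 0.171 CPM (counts scaled to a fixed library total), a limit for counting error only. All 8 macrophage markers examined reached at least 1 CPM in every group. The summed level of 5 dendritic cell markers, of which Itgax carried most, was 800.4 to 1094 CPM in GM libraries and 17.6 to 66.1 CPM in M libraries, with Flt3 at no more than 0.409 CPM in any library. The summed level of 6 neutrophil markers was 8.61 to 18.1 CPM in GM libraries and 0.104 to 0.432 CPM in M libraries. It was carried by Ngp and Ltf, with Ly6g, Mpo, Elane and Camp at no more than 0.753 CPM in any library. Of 5 T cell markers Cd3e was at 0 in all 16 libraries and Lck at 0.521 to 7.69 CPM. Their sum was 0.521 to 1.37 CPM at steady state and 2.77 to 7.69 CPM upon LPS, and its part in the LPS comparisons was not tested. The summed level of 10 heart muscle markers reached 27.5 to 93.6 CPM in GM-TC and M-TC at steady state (4 libraries) and no more than 1.32 CPM in the other 12, and its part in the results was not tested. CPM of single genes given below are scaled with edgeR's TMM factors. Differences are on the log2 scale with the standard error after ±, and a second number in parentheses after a difference, or a number alone in parentheses after "by", is edgeR's adjusted p.

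Since NF-κB binds κB sites, the promoter windows of the members were searched for the κB consensus of 10 bases on both strands. The windows span 250 bases before to 50 bases after each RefSeq gene start (build GRCm38.p6), and 7 of the 10 members were in the table, with 11 windows among them. Rel, Nfkb2, Nfkbia, Nfkbid and Nfkbie held the consensus in at least 1 window, that is 5 of 7 genes, against 2581 of 27025 genes (9.55%) over the whole table. By windows the counts were 7 of 11 for the members and 2779 of 32851 (8.46%) over all promoters. Windows of Nfkb2 overlap in part, so that its match within chr19:46305690-46305729 was counted more than once. The windows of Rela and Nfkbib had no match. Nfkb1, Relb and Nfkbiz were not matched in the table. A match describes the letters and not a bound site. The stretches below show the matches of Nfkbia, Rel and Nfkbie with their flanks, on the strand of each gene and upstream of its annotated boundary, with the matched bases in capitals, as examples of a subunit and of cytoplasmic inhibitors whose RNA rose upon LPS. They lie at chr12:55492652-55492691 (reverse strand), chr11:23771037-23771076 (reverse strand) and chr17:45555579-45555618 (forward strand).
Nfkbia: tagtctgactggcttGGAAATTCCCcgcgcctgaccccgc
Rel: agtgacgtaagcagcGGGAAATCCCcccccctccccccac
Nfkbie: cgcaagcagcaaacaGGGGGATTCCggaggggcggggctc
The Rel and Nfkbie matches fit the consensus as printed, and the Nfkbia match fits it when read on the other strand. Counted from the RefSeq start, the Nfkbia match began at -29, the Rel match at -92 and the Nfkbie match at -106. Nfkb2 and Nfkbid have several RefSeq starts. Their positions below are counted from a single one of these, and both matches lie inside the annotated gene. In Nfkb2 the sequence GGGAATTCCC began at -39, and in Nfkbid the sequence GGGACTTCCC began at -226.

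All 10 members were upregulated upon LPS challenge in all 4 cultures. Nfkbiz rose most, from 29.7-fold in M-TC to 119-fold in GM-TC, and the smallest rises were 3.46-fold (GM-TC), 3.53-fold (GM-noTC) and 4.02-fold (M-TC) for Rela and 3.31-fold (M-noTC) for Nfkbid. Of all tested genes, 32.8% (GM-TC), 33.6% (GM-noTC), 37.6% (M-TC) and 36.4% (M-noTC) were called higher, and 34.2%, 34%, 36.4% and 35.9%, in that order, lower. Scaling by library size alone gave 16.1% to 17.2% higher and 62.7% to 69.1% lower, with the members still higher in each culture. A call in the same upward direction in all 4 cultures was made for 3123 of 12514 genes (25.0%). The 8 LPS libraries lay above the 8 steady state libraries for each of the 10 members and for 2360 tested genes (18.9%). The median log2 fold change of the members was 3.21 and 3.22 for GM on TC and noTC, and 3.30 and 3.19 for M, against medians of all genes between -0.05 and -0.01. In bulk RNA a change per cell and a change in the number of cells of a type cannot be told apart. No member was called lower by LPS, by edgeR with or without adjustment or by DESeq2.

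**Figure D1:**
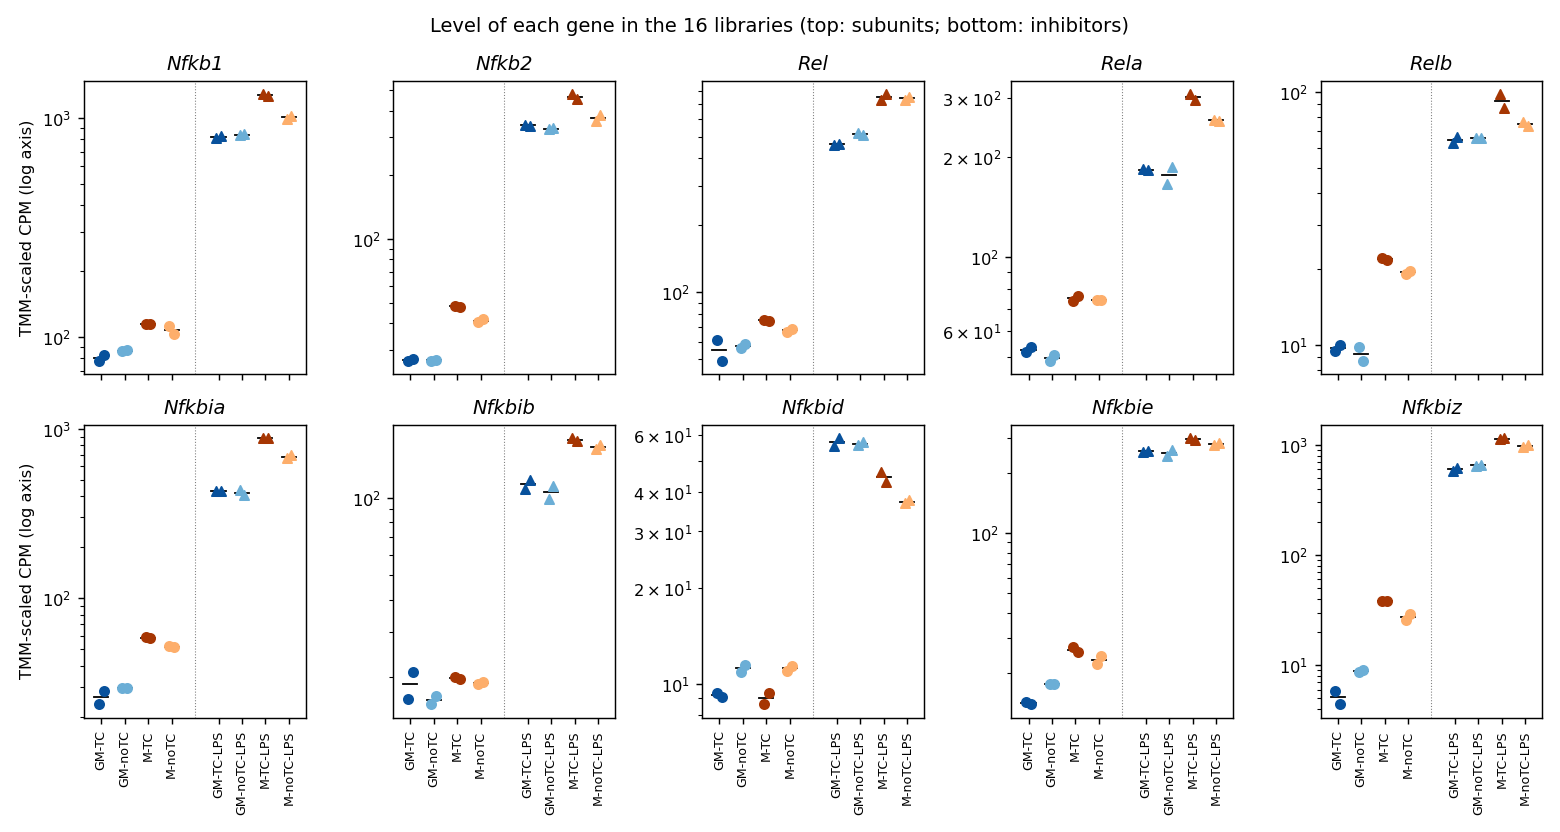
TMM-scaled CPM (log axis) of the 5 subunits (top) and 5 inhibitors (bottom) in each of the 16 libraries, with circles for steady state, triangles for LPS, colours for the 4 cultures and a black bar for the mean of 2 libraries. The 8 LPS libraries lie above the 8 steady state libraries in every panel, and Nfkbid is the panel in which GM libraries lie above M libraries upon LPS.

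Among the subunits, Nfkb1 encodes the precursor of the p50 subunit. Its level at steady state was 77.7 and 82.3 CPM on TC and 85.9 and 86.7 CPM on noTC for GM cells, with 114 and 114 CPM on TC and 111 and 103 CPM on noTC for M cells. Upon LPS it was 807 and 825 CPM on TC and 829 and 838 CPM on noTC for GM cells, with 1276 and 1260.0 CPM on TC and 980.2 and 1022 CPM on noTC for M cells. M-TC-LPS libraries were the highest, and no 2 groups overlapped. The log2 fold change upon LPS was 3.35 ± 0.05 (SE, n = 2 libraries per group, edgeR adjusted p = 7.29e-23) in GM-TC and 3.47 ± 0.05 (adjusted p = 2.64e-23) in M-TC. Nfkb2, the precursor of p52 in the non-canonical branch, lay between 26.7 and 48.2 CPM at steady state and between 327 and 478 CPM upon LPS. Part of the Nfkb2 exons overlaps exons on the opposite strand, 11.6% of its exon bases with AC114539.1 and 6.52% with Psd, and counting by strand is not given in the sources used here.

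Rel encodes c-Rel, a subunit abundant in haematopoietic cells. It lay between 49.3 and 75.5 CPM at steady state and between 459 and 775 CPM upon LPS, with log2 fold changes of 3.07 ± 0.07 in GM-TC and 3.46 ± 0.07 in M-noTC (adjusted p = 4.75e-20 and 2.71e-21). Rela encodes the main transactivating subunit of the canonical pathway. Its steady state levels were 51.8 and 53.8 CPM on TC and 48.8 and 51.0 CPM on noTC for GM cells, with 73.8 and 76.6 CPM on TC and 74.4 and 74.5 CPM on noTC for M cells. Upon LPS they were 184 and 182 CPM on TC and 165 and 187 CPM on noTC for GM cells, with 308 and 296 CPM on TC and 258 and 257 CPM on noTC for M cells. GM and M libraries did not overlap in either state, and the log2 fold change upon LPS kept to a narrow range over the cultures, from 1.79 in M-noTC to 2.01 ± 0.06 in M-TC (adjusted p = 1.71e-18). Relb, the partner of p52, was the subunit with the lowest CPM, 8.69 to 22.2 at steady state and 63.1 to 98.0 upon LPS. On the log2 scale it rose by 2.72 ± 0.08 and 2.83 ± 0.08 in GM cells on TC and noTC, and by 2.08 ± 0.07 and 1.94 ± 0.07 in M cells.

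Among the inhibitors, Nfkbia encodes IκBα. Its steady state levels were 23.6 and 28.4 CPM on TC and 29.6 and 29.7 CPM on noTC for GM cells, with 59.0 and 58.1 CPM on TC and 52.0 and 51.5 CPM on noTC for M cells. Upon LPS they were 431 and 429 CPM on TC and 434 and 406 CPM on noTC for GM cells, with 884 and 879 CPM on TC and 670.3 and 699 CPM on noTC for M cells. M libraries were above GM libraries in both states, and the rise was 16.4-fold in GM-TC (log2 4.04 ± 0.07, adjusted p = 1.62e-22) and 15.1-fold in M-TC (log2 3.91 ± 0.06, adjusted p = 7.49e-23). Nfkbie encodes IκBε, another cytoplasmic inhibitor. It rose from 13.9 to 26.8 CPM at steady state to 244 to 301 CPM upon LPS. Nfkbib encodes IκBβ, whose resynthesis is classically slower than that of IκBα. It lay between 15.7 and 21.0 CPM at steady state and between 99.0 and 171 CPM upon LPS, and gained 2.58 ± 0.09 in GM cells and 3.08 ± 0.08 in M cells on TC, on the log2 scale. Of the Nfkbib exon bases, 14.5% overlap Ccer2 and 1.94% overlap Sirt2 on the opposite strand.

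Nfkbiz and Nfkbid encode atypical nuclear IκB proteins, IκBζ and IκBNS, which modulate the transcription of selected NF-κB targets. Nfkbiz was at 5.81 and 4.39 CPM on TC and 8.64 and 9.09 CPM on noTC for GM cells, with 38.6 and 38.1 CPM on TC and 25.9 and 28.9 CPM on noTC for M cells. Upon LPS it reached 583 and 613 CPM on TC and 649 and 663 CPM on noTC for GM cells, with 1120.4 and 1158 CPM on TC and 959 and 999 CPM on noTC for M cells. No 2 of the 8 groups overlapped, and it spanned the widest range of the 10 members. On the log2 scale GM cells gained 6.89 ± 0.09 on TC (adjusted p = 1.31e-24) and 6.21 ± 0.08 on noTC, and M cells 4.89 ± 0.07 on TC and 5.15 ± 0.07 on noTC (adjusted p = 3.74e-24). Nfkbid was at 9.39 and 9.10 CPM on TC and 10.9 and 11.5 CPM on noTC for GM cells, with 8.62 and 9.39 CPM on TC and 11 and 11.4 CPM on noTC for M cells. Upon LPS it was at 55.6 and 58.9 CPM on TC and 56.1 and 57.0 CPM on noTC for GM cells, with 46.0 and 42.9 CPM on TC and 36.8 and 37.5 CPM on noTC for M cells. It was the member with the lowest CPM upon LPS, and the member whose LPS libraries were higher in GM than in M. Its log2 fold change ranged from 1.73 ± 0.07 in M-noTC (adjusted p = 2.12e-15) to 2.63 ± 0.08 in GM-TC (adjusted p = 4.16e-18).

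**Figure D2:**
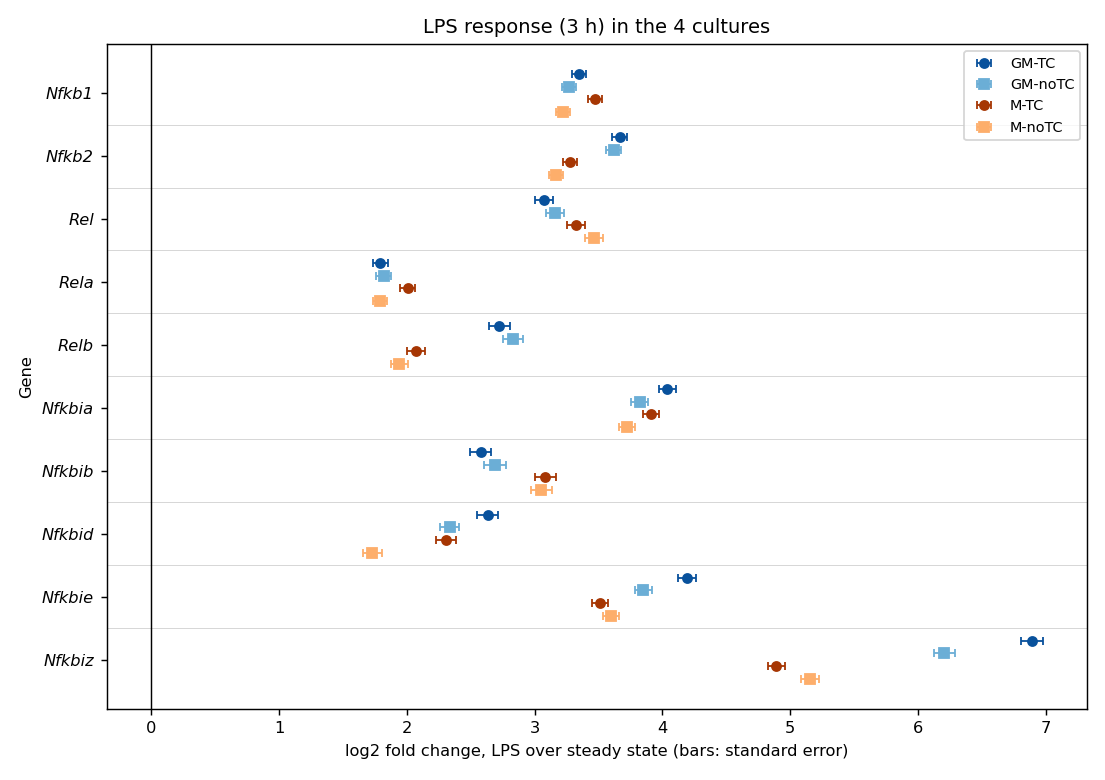
Log2 fold change upon LPS (x axis, LPS over steady state, bars are standard errors of the fit) of each member in the 4 cultures. All points lie to the right of 0, and Nfkbiz shows the widest separation between GM and M, 6.89 in GM-TC against 4.89 in M-TC.

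Levels of different genes were compared per kilobase of merged exons, as a description without a test. Rela made up 40.2% to 44.4% of the summed subunit level at steady state and 19.2% to 23.3% upon LPS. At steady state Nfkb1 held 15.2% to 18.3%, Nfkb2 14.6% to 17.6% and Rel 15.9% to 20.6%. Upon LPS these shares were 22.5% to 24.5% for Nfkb1, 21.6% to 26.9% for Nfkb2 and 22.0% to 27.2% for Rel. Thus 4 subunits lay close together in their shares upon LPS by merged exons, with Relb at 5.08% to 6.09%. The fall in the share of Rela was present with each length, 32.0% to 35.1% against 14.0% to 17.4% with the longest transcript and 27.7% to 31.1% against 11.9% to 14.7% with the coding length. The order of the subunits was not, since Nfkb1 held 43.3% to 45.9% upon LPS with the longest transcript.

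Among the inhibitors Nfkbia held the largest share in every library, 45.6% to 55.6% at steady state and 46.2% to 56.6% upon LPS per kilobase of merged exons. Nfkbiz held 2.39% to 11.7% at steady state and 21.5% to 24.4% upon LPS, and without division by length its share upon LPS was 40.7% to 45.8%, above that of Nfkbia. The shares of Nfkbib and Nfkbid were lower upon LPS, 7.88% to 9.81% against 13.9% to 26.4% at steady state for Nfkbib and 1.89% to 4.54% against 5.56% to 12.7% for Nfkbid. The summed inhibitor level divided by the summed subunit level was 0.808 to 1.10 at steady state and 1.89 to 2.27 upon LPS. With the longest transcript these ratios were 0.604 to 0.828 and 1.32 to 1.57, so the summed RNA of the inhibitor genes gained on that of the subunit genes with either length. The inhibitor sum includes Nfkbiz and Nfkbid, whose nuclear proteins modulate transcription, so the ratio does not measure inhibition. The values are RNA levels and say nothing of protein, and IκBα protein is degraded and resynthesised upon LPS.

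**Figure D3:**
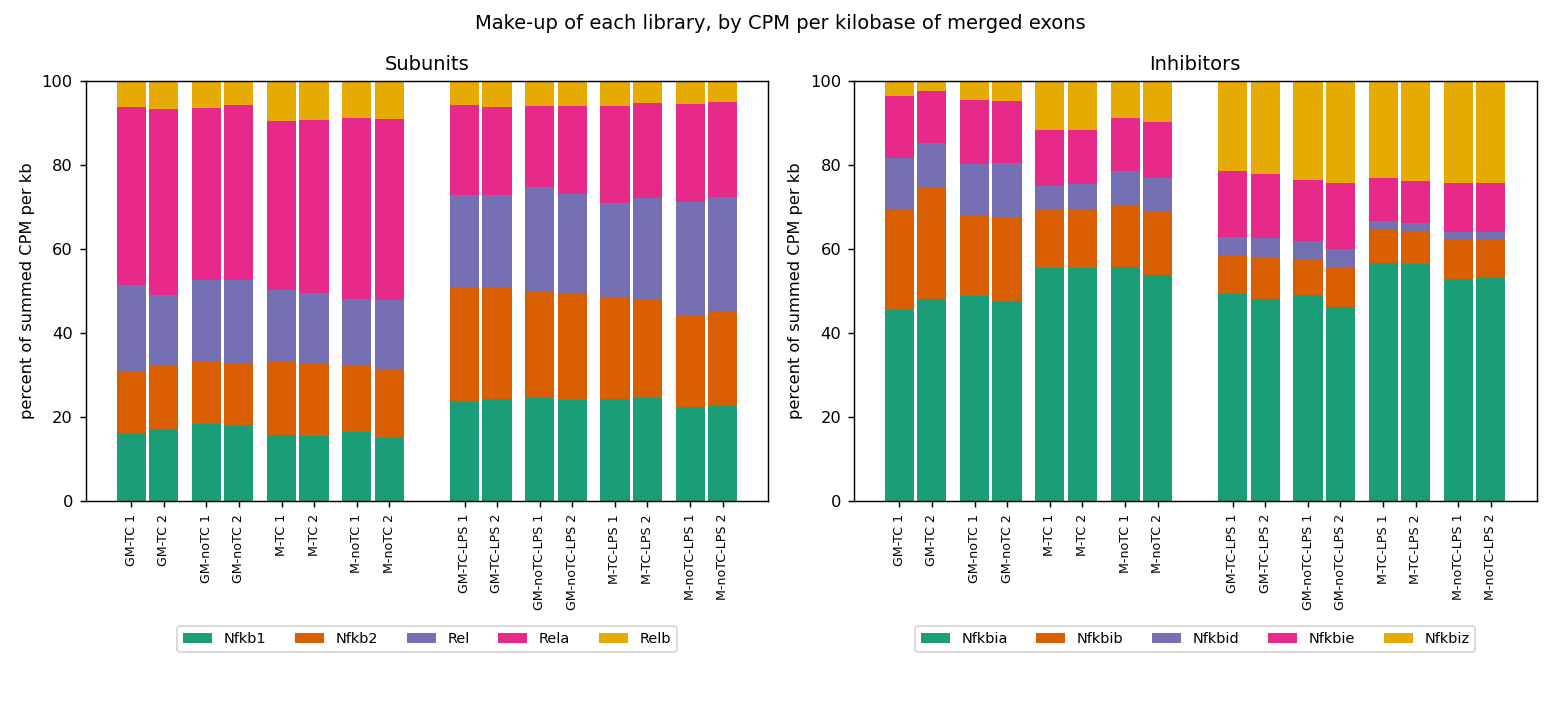
Stacked bars of the percent share of each subunit (left) and inhibitor (right) in the summed CPM per kilobase of merged exons, 1 bar for each of the 16 libraries, with LPS libraries to the right of each panel. The share of Rela is 40.2% to 44.4% at steady state and 19.2% to 23.3% upon LPS, while that of Nfkbiz goes from at most 11.7% to at least 21.5%.

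The comparison of GM with M macrophages asked whether the growth factor set the level of the system. At steady state 8 members were lower in GM than in M on TC dishes and 9 on noTC dishes, and no member was higher by edgeR, with or without adjustment, or by DESeq2. Of all genes, 32.6% were called higher and 28.9% lower on TC, and 31.4% higher and 30.7% lower on noTC. Upon LPS 9 members were lower in GM and Nfkbid was higher, on both dishes, where 33.9% of all genes were higher and 32.9% lower on TC and 33.5% and 32.6% on noTC. The median log2 difference of the members was -0.67 and -0.49 at steady state and -0.61 and -0.40 upon LPS, on TC and noTC, against medians of all genes from 0 to 0.03. These comparisons use the same libraries as the comparisons with LPS.

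Nfkbiz showed the largest difference. It was 7.61-fold lower in GM-TC than in M-TC (log2 -2.93 ± 0.10, adjusted p = 3.52e-17) and 3.10-fold lower in GM-noTC than in M-noTC (log2 -1.63 ± 0.08, adjusted p = 1.28e-13). The noTC value became -2.17 ± 0.09 (edgeR adjusted p = 1.03e-14) after the subtraction described below for the dish comparisons. Upon LPS the differences were smaller, -0.93 ± 0.06 on TC (adjusted p = 2.86e-12) and -0.58 ± 0.06 on noTC (adjusted p = 8.73e-09). Nfkbia was lower in GM by 2.24-fold on TC at steady state (adjusted p = 1.83e-12) and by 2.05-fold upon LPS (adjusted p = 3.27e-13), that is by close amounts in both states. Relb followed the pattern of Nfkbiz. On TC its level was 9.54 and 10.1 CPM with GM-CSF against 22.2 and 21.7 with M-CSF, and 63.1 and 66.6 against 98.0 and 86.9 upon LPS, with log2 differences of -1.16 ± 0.09 and -0.51 ± 0.07. Nfkbie and Nfkb2 also differed less upon LPS, with -0.21 and -0.45 on TC against -0.89 and -0.84 at steady state. On noTC upon LPS the calls of Relb (-0.19), Nfkbie (-0.15) and Nfkb2 (-0.17) were small, and each was lost without at least 1 of M-noTC-LPS replicates 1 and 2 (adjusted p = 0.0998 for Relb without replicate 1, and 0.0884 for Nfkbie and 0.0967 for Nfkb2 without replicate 2). Without GM-noTC-LPS replicate 1 the adjusted p was 0.0559 for Relb and 0.17 for Nfkbie, and without replicate 2 it was 0.0606 for Relb.

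Nfkb1, Rel and Rela were lower in GM by 0.24 to 0.72 on the log2 scale in all 4 comparisons. For Rela, the values were -0.51 and -0.58 at steady state and -0.72 and -0.55 upon LPS, on TC and noTC. Nfkbib differed little at steady state. On TC its level was 16.5 and 21.0 CPM in GM cells against 20.1 and 19.6 CPM in M cells, which overlap (log2 -0.07 ± 0.10, adjusted p = 0.543, and -0.26 with 0.0382 without GM-TC replicate 2), and the steady state call on noTC had an adjusted p of 0.041, which was between 0.0512 and 0.192 without any 1 of the 4 libraries compared. Upon LPS Nfkbib was lower in GM (log2 -0.58 ± 0.07 on TC and -0.58 ± 0.07 on noTC). Nfkbid did not pass the test at steady state (0.04 ± 0.10 on TC, adjusted p = 0.779), and library size scaling turned this value to -0.28 with an adjusted p of 0.0143. On noTC the value was -0.0003 ± 0.08 (adjusted p = 1), and -0.29 (0.00427) with library size scaling, under which all 20 steady state tests of the members were called. Upon LPS it was higher in GM by 0.36 ± 0.07 on TC (adjusted p = 4.65e-05) and 0.61 ± 0.07 on noTC (adjusted p = 4.16e-08). The summed dendritic cell and neutrophil markers given above moved with the growth factor, and their part in these differences was not tested.

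**Figure D4:**
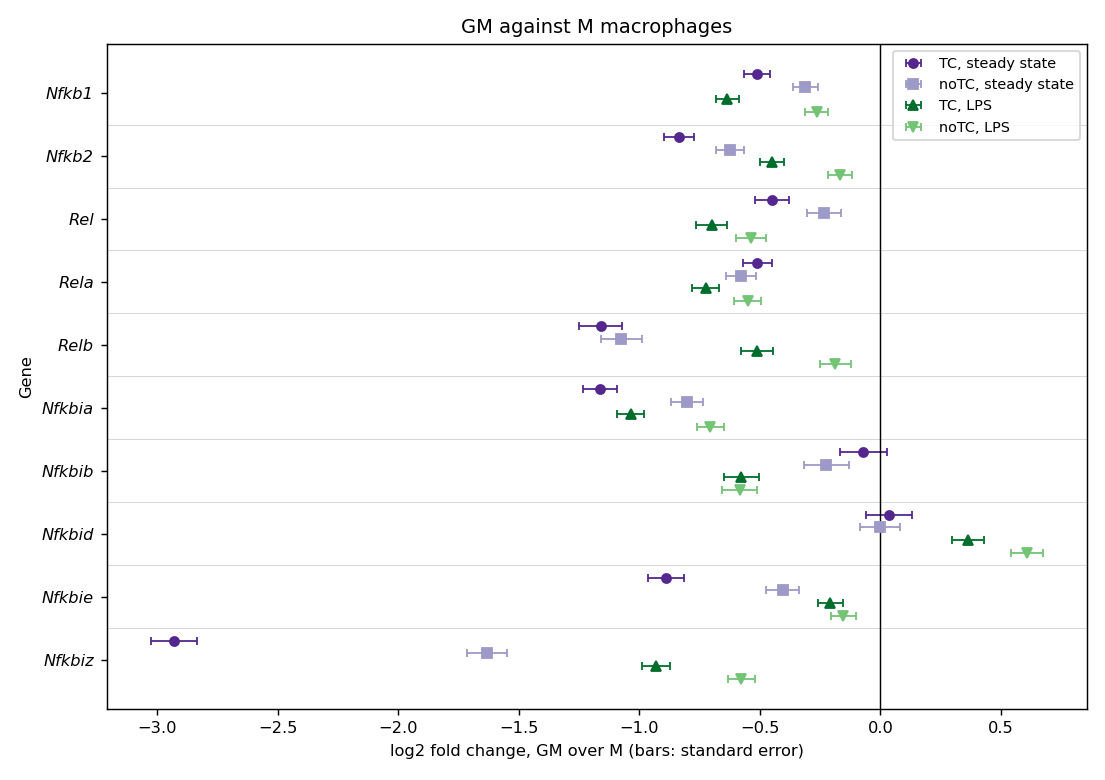
Log2 fold change of GM over M macrophages (x axis, bars are standard errors of the fit) for each member on TC and noTC dishes, at steady state and upon LPS. Nfkbiz lies farthest to the left, at -2.93 on TC at steady state and -0.93 upon LPS, and Nfkbid lies to the right of 0 upon LPS.

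Whether the size of the LPS response differed between GM and M was tested as a difference between log2 fold changes. On TC dishes Nfkbiz rose more in GM by 2.0 ± 0.11 (adjusted p = 5.33e-12), Nfkbie by 0.68 ± 0.09 (2.88e-06), Relb by 0.65 ± 0.11 (6.36e-05), Nfkb2 by 0.39 ± 0.08 (0.000386) and Nfkbid by 0.33 ± 0.12 (0.0273). Nfkbib rose less in GM (-0.51 ± 0.12, 0.00171), and so did Rel (-0.25 ± 0.09, 0.0399) and Rela (-0.21 ± 0.08, 0.0445). On noTC dishes the same 5 genes rose more, Nfkbiz by 1.05 ± 0.10 (2.94e-08), Relb by 0.89 ± 0.11, Nfkbid by 0.61 ± 0.11, Nfkb2 by 0.46 ± 0.08 and Nfkbie by 0.25 ± 0.09, while Nfkbib (-0.36 ± 0.12) and Rel (-0.30 ± 0.09) rose less. The Nfkbiz value on noTC became 1.59 ± 0.11 (2.92e-10) after the subtraction described below for the dish comparisons. So 8 members differed on TC and 7 on noTC, where 41.1% and 36.2% of all genes did. Nfkb1 and Nfkbia did not pass on either dish, with -0.12 and 0.13 on TC.

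The calls for Rel and Rela on TC rest on the scaling, since library size alone gave 0.10 for Rel (adjusted p = 0.439) and 0.13 for Rela (adjusted p = 0.194), with the opposite sign. They were also lost without single libraries, Rel at -0.08 without GM-TC replicate 1 (adjusted p = 0.445) and Rela at -0.17 without M-TC replicate 1 (adjusted p = 0.184). Library size alone also ended the calls of Nfkbib on TC (-0.16, 0.275) and noTC (-0.14, 0.35) and of Rel on noTC (-0.08, 0.523), gave 0.22 for Nfkb1 on TC (0.0116) against -0.12 with TMM scaling, and gave calls for Nfkbia of 0.47 on TC (0.000116) and 0.32 on noTC (0.00481). Of the other calls, that of Nfkbid on TC was lost without GM-TC, GM-TC-LPS, M-TC or M-TC-LPS replicate 2 (adjusted p from 0.0818 to 0.136). By DESeq2 the calls of Nfkbid (0.34, 0.0841) and Rela (-0.21, 0.0647) on TC did not pass. On noTC, Nfkbie was lowest at 0.19 without M-noTC replicate 2 (0.182), Nfkbib was at -0.27 without GM-noTC-LPS replicate 1 (0.106), and Rel at -0.26 without GM-noTC replicate 2 (0.0925).

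The dish comparisons asked whether an untreated surface changed the level of these genes. In GM at steady state Nfkbie and Nfkbiz were higher on noTC, where 4.69% of all genes were called higher and 2.85% lower. Nfkbiz went from 5.81 and 4.39 CPM on TC to 8.64 and 9.09 CPM on noTC (log2 0.82 ± 0.12, adjusted p = 6.4e-05), and Nfkbie from 14.3 and 13.9 to 17.4 and 17.6 CPM (log2 0.32 ± 0.08, adjusted p = 0.0142). In M at steady state the direction for Nfkbiz was the opposite, from 38.6 and 38.1 CPM on TC to 25.9 and 28.9 CPM on noTC (log2 -0.48 ± 0.07, adjusted p = 1.6e-05). Nfkb2 (-0.22 ± 0.06, 0.00536) and Nfkbia (-0.18 ± 0.06, 0.0392) were also lower on noTC in M, and Nfkbid was higher (0.31 ± 0.09, 0.0091). There 16.1% of all genes were called higher and 11.1% lower. The heart muscle markers given above moved with the dish at steady state in both GM and M. The summed dendritic cell markers moved with it in M, from 21.8 and 23.4 CPM in the M-TC libraries to 65.4 and 66.1 CPM in M-noTC, and from 17.6 and 19.5 to 45.6 and 50.3 CPM upon LPS. In each M group only 1 of these 5 markers, Itgax, reached 1 CPM in both libraries, so this is the movement of mainly that gene. The part of either list in the dish differences was not tested.

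Both calls in GM ended when a small share of the mean level in other libraries was subtracted. Genes outside the members with under 1 CPM in both GM-TC libraries and at least 100 CPM on average elsewhere were higher in GM-noTC by a median of 0.675% of their mean level in the 10 other libraries (15 genes, of which 14 differed from it by under 1.5-fold). The same quantity for M-noTC was 0.600% (19 genes, 17 of them as close). When this share was subtracted from the noTC libraries at steady state, the Nfkbiz difference in GM was 0.16 ± 0.13 (adjusted p = 0.551) and that of Nfkbie 0.23 ± 0.08 (adjusted p = 0.0819). The subtraction took 37.1% of the Nfkbiz level in GM-noTC, in CPM scaled by library size, and 6.20% of that of Nfkbie. In M the Nfkbiz difference became -0.60 ± 0.07 (adjusted p = 1.44e-06) and 8.64% of its level was subtracted. The other calls in M at steady state held after the subtraction, at -0.25 ± 0.06 for Nfkb2, -0.22 ± 0.06 for Nfkbia and 0.30 ± 0.09 for Nfkbid. The reference genes were picked as low on TC, which by itself favours a positive share. A true rise of such genes on noTC would give a share as well, and the subtraction cannot tell the 2 apart. Where the share came from was not tested.

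Single libraries also mattered for the small differences at steady state. The Nfkbie call in GM was lost without GM-TC replicate 2 (0.29, adjusted p = 0.102), GM-noTC replicate 1 (0.32, 0.0961) or GM-noTC replicate 2 (0.31, 0.103). In M the Nfkbia call was lost without any 1 of the 4 libraries compared (adjusted p between 0.113 and 0.154), the Nfkbid call without M-TC replicate 1 (0.25, 0.134) or M-noTC replicate 2 (0.28, 0.0972) and by DESeq2 (0.29, 0.0611), and the Nfkb2 call without M-noTC replicate 1 (-0.20, 0.0601). Without GM-TC replicate 1, Rel was called higher (0.22, 0.0171) and Nfkbib lower (-0.37, 0.0116) on noTC in GM, and without GM-TC replicate 2 Nfkbia was called higher (0.33, 0.00917).

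Upon LPS the dish left calls among the members in M. In GM no member was called in either direction by edgeR or by DESeq2, and 2 (Rel and Nfkbiz) passed an unadjusted p, with 2.08% of all genes called higher and 0.727% lower. In M 7 members were lower on noTC, where 10.4% of all genes were called higher and 12.9% lower. Nfkbia went from 884 and 879 CPM on TC to 670.3 and 699 CPM on noTC (log2 -0.36 ± 0.06, adjusted p = 4.63e-05). Nfkb1 went from 1276 and 1260.0 on TC to 980.2 and 1022 CPM on noTC (log2 -0.34 ± 0.05, adjusted p = 1.78e-05), and Nfkb2 from 478 and 456 to 357 and 384 CPM (log2 -0.33 ± 0.05, adjusted p = 3.12e-05). The libraries of the 2 dishes did not overlap for these genes. Relb, Nfkbid, Rela and Nfkbiz were lower as well, at -0.30 ± 0.06 (0.00151), -0.26 ± 0.07 (0.00722), -0.23 ± 0.06 (0.00424) and -0.22 ± 0.06 (0.00693). Rel, Nfkbib and Nfkbie did not pass, at -0.01 ± 0.06, -0.09 ± 0.07 and -0.08 ± 0.05. Scaling by library size alone lost the calls of Rela (-0.14, 0.0687), Nfkbid (-0.17, 0.0738) and Nfkbiz (-0.13, 0.091), and leaving out M-TC-LPS replicate 1 lost those of Rela (-0.20, 0.0524), Relb (-0.21, 0.0571) and Nfkbid (-0.21, 0.0987). The Nfkbiz call was also lost without M-TC-LPS replicate 2 (-0.19, 0.0629) or M-noTC-LPS replicate 1 (-0.19, 0.0935).

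**Figure D5:**
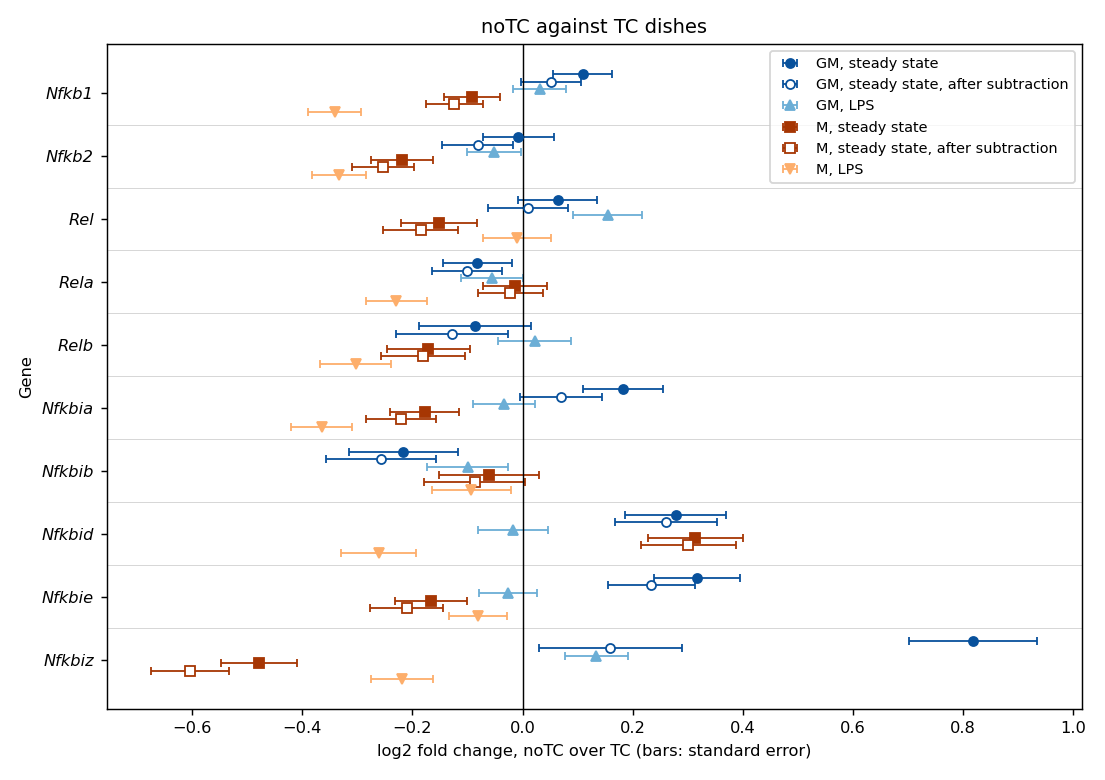
Log2 fold change of noTC over TC dishes (x axis, bars are standard errors of the fit) for each member in GM and M macrophages at steady state and upon LPS. Open symbols give the steady state values after a share of the mean level in other libraries was subtracted, which moves Nfkbiz in GM from 0.82 to 0.16.

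Whether the dish changed the LPS response was again tested on the difference of the fold changes. In GM Nfkbiz rose less on noTC (-0.68 ± 0.13, adjusted p = 0.00928), where 0.783% of all genes were called. After the subtraction the value was -0.02 ± 0.14 (adjusted p = 0.983), and it was -0.48 (0.157) without GM-TC replicate 2 and -0.64 (0.117) without GM-noTC replicate 2. In M Nfkbid rose less on noTC (-0.58 ± 0.11, 0.00145), with 10.6% of all genes called. Nfkb1 did so too (-0.25 ± 0.07, 0.0238), a call that was lost after the subtraction (-0.22, 0.0602) and without any 1 of 7 libraries, at -0.18 (0.214) without M-noTC replicate 1. Nfkbiz in M did not pass (0.26 ± 0.09, 0.0687), but was called as a larger rise on noTC after the subtraction (0.39 ± 0.09, 0.00913), with library size scaling (0.36, 0.0102) and by DESeq2 (0.26, 0.0291).

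The dish effect itself was compared between GM and M. At steady state the noTC effect was higher in GM than in M for Nfkbiz by 1.3 ± 0.14 (adjusted p = 1.07e-06), Nfkbie by 0.48 ± 0.10 (0.00307) and Nfkbia by 0.36 ± 0.10 (0.0169), with 11.2% of all genes called. After the subtraction the Nfkbiz value was 0.76 ± 0.15 (0.00159), that of Nfkbie 0.44 ± 0.10 (0.00681) and that of Nfkbia 0.29 ± 0.10 (0.0618), which no longer passed. Upon LPS the effect was higher in GM for Nfkb1 by 0.37 ± 0.07 (0.000785), Nfkbiz by 0.35 ± 0.08 (0.0055), Nfkbia by 0.33 ± 0.08 (0.00779), Relb by 0.33 ± 0.09 (0.0256) and Nfkb2 by 0.28 ± 0.07 (0.0101), with 10.6% of all genes called. The Nfkbia call at steady state was also lost without single libraries (adjusted p from 0.0538 without GM-TC replicate 1 to 0.0588 without GM-noTC replicate 2). Upon LPS, without M-TC-LPS replicate 1 the calls of Nfkb2 (0.24, 0.0552) and Relb (0.23, 0.157) were lost, and without M-noTC-LPS replicate 1 those of Nfkb2 (0.23, 0.083), Nfkbia (0.30, 0.0522) and Relb (0.35, 0.0508). With library size scaling Nfkb2 (0.18, 0.106), Nfkbia (0.22, 0.0635) and Relb (0.22, 0.157) did not pass.

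The order of the 8 groups was much the same among the members. M-TC-LPS was the highest group for 9 members and GM-TC-LPS for Nfkbid. For 9 members the order upon LPS began with M-TC-LPS and M-noTC-LPS, which overlapped for Rel. The GM groups upon LPS followed, and GM-TC-LPS and GM-noTC-LPS overlapped for Rela, Relb, Nfkbia, Nfkbib, Nfkbid and Nfkbie. No member was called between these GM groups. At steady state M-TC had the highest group mean for the same 9 members, with overlap by M-noTC for Rela and by GM-TC for Nfkbib. Of these 9, Nfkb2, Nfkbia and Nfkbiz were called lower on noTC in M. The lowest group was GM-TC for Nfkb1, Rel, Nfkbia, Nfkbie and Nfkbiz, GM-noTC for Nfkb2, Rela, Relb and Nfkbib, and M-TC for Nfkbid.

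The other genes of the pathway were described from fixed lists. Of 11 genes of the IKK complex and its activating kinases, 8, 8, 8 and 9 rose and 1, 1, 2 and 2 fell upon LPS (GM on TC and noTC, then M on TC and noTC), with median log2 fold changes between 0.59 and 0.84, well under the members' medians of 3.19 to 3.30. Among all genes, 32.8% to 37.6% rose and 34% to 36.4% fell in these comparisons. Map3k8, a kinase held by the Nfkb1 precursor, rose by 2.59 in GM-TC and 2.85 in M-noTC (1.65e-19 and 8.39e-21). Ikbke, an IKK-related kinase, rose by 1.99 and 2.09 on TC in GM and M, and Tab2, an adaptor of the TAK1 kinase, by 1.45 and 2.11. Map3k14, which encodes the NF-κB-inducing kinase of the non-canonical branch, rose in GM-TC by 0.49 (0.00116) and fell in M-TC (-2.39, 2.69e-12), and the difference between these responses was 2.88 (8.88e-11). It was higher in GM upon LPS by 2.30 on TC and 2.44 on noTC, while Ikbke (-1.39 and -1.15) and Tab2 (-1.15 and -0.99) were lower in GM. Tab1 was higher in GM upon LPS by 1.16 on TC, and its response differed by 1.47 (1.19e-06). The dish called few of these genes, Map3k14 higher on noTC in GM upon LPS (0.58, 0.00362), Map3k8 lower in M at steady state (-0.38), and 3 genes lower in M upon LPS, namely Map3k8 (-0.27), Ikbke (-0.21) and Tbk1 (-0.19). Of all genes, 2.08%, 11.1% and 12.9% were called in these directions, in that order.

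Of 19 receptor-proximal adaptors and ligases, 13 rose and 5 fell upon LPS in each GM culture and 15 rose and 4 fell in each M culture. Of all genes 32.8% to 37.6% rose and 34% to 36.4% fell. Traf1 rose by 4.43 in GM-TC and 5.12 in M-TC, Birc3, a ubiquitin ligase, by 2.32 and 3.09, Irak2, a kinase of the MyD88 complex, by 1.62 and 3.13, and Cd14, the LPS co-receptor, by 2.81 and 2.36. Upon LPS 13 of the 19 were lower and 3 higher in GM on TC, among them Birc3 at -1.32, Traf1 at -1.23 and Cd14 at -0.91, with Traf5 higher at 1.69. In that comparison 32.9% of all genes were lower and 33.9% higher in GM. The responses of Irak2 (-1.52) and Myd88 (-0.90) were smaller in GM on TC and those of Traf3 (1.13) and Cd14 (0.45) larger. On noTC in M upon LPS 9 of the 19 were lower, against 12.9% of all genes. Irak3, an inhibitory IRAK, was at -0.73 (4.25e-08), Traf5 at -0.53 and Birc3 at -0.28.

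Of 12 genes of ubiquitin editing and feedback, 8 rose and 1 fell in each GM culture, 9 rose and 2 fell in M-TC, and 8 rose and 2 fell in M-noTC. Among all genes, 32.8% to 37.6% rose and 34% to 36.4% fell. Tnfaip3, which encodes the deubiquitinase A20, rose by 5.52 in GM-TC and 5.89 in M-TC. Nfkbiz was the member that rose more than Tnfaip3 in GM-TC, and in M-TC no member rose as much. Zc3h12a, an endoribonuclease, rose by 4.0 and 3.09, Rnf31, a subunit of the linear ubiquitin ligase, by 2.68 and 3.05, and Tnip3 by 2.43 and 3.18. In GM against M upon LPS on TC 7 were lower and 3 higher, with Tnip3 at -2.19, Rnf31 at -1.09, Pdlim2 at -1.07 and Zc3h12a at 0.90. There 32.9% of all genes were lower and 33.9% higher. On noTC in GM at steady state 3 were higher, against 4.69% of all genes. These were Pdlim2 at 0.78 (0.0117), Tnfaip3 at 0.62 (3.22e-06) and Tnip3 at 0.46 (0.00233). The subtraction described above, applied to these genes after the data were seen, gave 0.78 (0.0138) for Pdlim2, 0.38 (0.00214) for Tnfaip3 and 0.41 (0.00905) for Tnip3. On noTC in M upon LPS 5 were lower, against 12.9% of all genes, among them Tnip3 at -0.55 and Zc3h12a at -0.36.

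The machinery that degrades IκB was measured through 10 genes. All 10 rose upon LPS in both M cultures, where 37.6% (TC) and 36.4% (noTC) of all genes did. In GM 5 rose on TC, and on noTC 6 rose and 1 fell, where 32.8% and 33.6% of all genes rose. Fbxw11, a substrate receptor of the SCF ubiquitin ligase that recognises phosphorylated IκB, rose by 1.32 in GM-TC and 1.98 in M-TC. Cul1, the scaffold of that ligase, rose by 1.33 in M-TC (5.79e-16) and was at -0.09 in GM-TC (0.137), a difference between the responses of -1.43 (1.79e-12). The ubiquitin-conjugating enzyme gene Ube2d3 rose by 0.71 and 1.31, and Ube2m by 0.55 and 1.07. Upon LPS 7 of the 10 were lower in GM on each dish, with Cul1 at -1.51, Fbxw11 at -0.90, Btrc at -0.48 and Rbx1 at -0.45 on TC. The share of all genes lower in GM was 32.9% on TC and 32.6% on noTC. Of 3 tested genes for other IκB-like ankyrin proteins, Bcl3, an atypical nuclear IκB, rose by 2.32 in GM-TC and 2.67 in M-TC and Nfkbil1 by 1.81 and 1.04, while Ankra2 fell (-0.47 and -0.68). Bcl3 was lower in GM on TC upon LPS (-1.07).

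The tested genes outside the members whose pattern over the 8 group means lay nearest to each member were named by the root mean square difference of centred log2 CPM, a description over 8 groups with no test. For Nfkb1 they were Sod2 (0.14), Ehd1 (0.15) and Gm49342 (0.16), and for Rel they were Sod2 (0.12), Gm49342 (0.15) and Zc3h12c (0.15), and Nfkb1 and Rel were each other's nearest member (0.12). For Rela they were Nr3c1, Psme2 and Phtf2 (each 0.08), for Relb Rassf4 (0.11), Ptprj and Lmo4 (each 0.12), and for Nfkb2 Tent4a (0.16), Xkr8 (0.18) and Casp4 (0.19). Among the inhibitors they were Daxx (0.13), Casp4 (0.17) and Pde4b (0.20) for Nfkbia, Whamm (0.12), Car13 and Ccnj (each 0.14) for Nfkbib, and Adgrg6 (0.11), Sp140 (0.14) and Fam102b (0.18) for Nfkbie. Nfkbid had Abhd17c (0.13), 4930523C07Rik (0.15) and Rcl1 (0.19), and its nearest member, Rela, was at 0.50. Nfkbiz stood farthest from the others, with Mx2 (0.23), Clec4e (0.26) and Ifi211 (0.43) outside the members and Nfkbia (1.07) as its nearest member, over a range of its own of 7.79.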

How the data were processed

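Expression was measured by RNA-seq of poly(A) RNA in 16 libraries, grouped by the sample labels into 8 groups of 2. The authors trimmed reads with fastp (0.18.0), aligned them with HISAT2 and quantified genes with RSEM, per the labels and the study's methods, and deposited expected counts without normalization. Bowtie2 (2.2.8) and StringTie (1.3.1) are also named in the submitters' processing notes. The genome build and annotation are not given in the sources used here.

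Counts were rounded, filtered by group with edgeR's filterByExpr (12514 of 22287 genes left) and scaled with TMM factors. A quasi-likelihood fit of 8 group means over all 16 libraries (edgeR 4.0.16, R 4.3.3) gave 18 contrasts, called at a Benjamini-Hochberg adjusted p under 0.05 over all tested genes. Fold changes are on the log2 scale, and standard errors, derived from the F statistic, are approximate. Rounding altered 6.56% to 8.19% of the values of a library.

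Alternatives were library size or DESeq2 size factors in place of TMM, no filter, DESeq2 (1.42.0), a fold change above 2 with unadjusted p under 0.05, only the libraries of the comparison, a replicate block, leaving out each library, and the subtraction of a share of the mean level in other libraries. Lengths came from GENCODE (GRCm38) and promoters from RefSeq. All 10 members are named, with up to 4 called genes per pathway list and family of comparisons, those of largest change, and the 3 nearest patterns per member. The members and lists were chosen with earlier results of these data known. On simulated counts for the LPS comparison in GM-TC over 12514 genes, 66 of 67 genes changed 1.5-fold, 67 of 67 changed 2-fold and 66 of 66 changed 4-fold were called, with 16 unchanged genes. The simulation used a single spread for all genes, equal levels in all groups and 200 upward changes only. It checks the fit and does not give the power of the real comparisons.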

Additional observations from a re-analysis of the deposited data

Results flagged for a closer look

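Differences between 2 effects under the same contrast were called for 26 of 60 tests on the members, each by edgeR's quasi-likelihood test with adjustment over all 12514 genes, on 2 libraries per group. Of all genes, 41.1% and 36.2% were called for the growth factor by LPS differences on TC and noTC, which hold 15 of the 26, 0.783% and 10.6% for the dish by LPS differences in GM and M, and 11.2% and 10.6% for the dish by growth factor differences at steady state and upon LPS. The LPS response differed between GM and M on TC by 2.0 for Nfkbiz, 0.68 for Nfkbie, 0.65 for Relb, 0.39 for Nfkb2, 0.33 for Nfkbid, -0.21 for Rela, -0.25 for Rel and -0.51 for Nfkbib, on the log2 scale. Those of Rel and Rela took the opposite sign with library size scaling. On noTC it differed by 1.05 for Nfkbiz (1.59 after the subtraction described above), 0.89 for Relb, 0.61 for Nfkbid, 0.46 for Nfkb2, 0.25 for Nfkbie, -0.30 for Rel and -0.36 for Nfkbib. The LPS response differed between dishes by -0.68 for Nfkbiz in GM, and by -0.25 for Nfkb1 and -0.58 for Nfkbid in M. After the subtraction described above Nfkbiz in GM (-0.02, adjusted p = 0.983) and Nfkb1 in M (-0.22, adjusted p = 0.0602) did not pass. The dish effect differed between GM and M at steady state by 1.3 for Nfkbiz, 0.48 for Nfkbie and 0.36 for Nfkbia, which did not pass after the subtraction (0.29, adjusted p = 0.0618). Upon LPS it differed by 0.37 for Nfkb1, 0.35 for Nfkbiz, 0.33 for Nfkbia, 0.33 for Relb and 0.28 for Nfkb2. Groups of 2 libraries are too small to test a single library as standing apart.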

How the results depend on the processing

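The 40 LPS calls of the members (10 genes in 4 cultures) stood under every alternative, including each left-out library. With a fold change above 2 and an unadjusted p, the calls by growth factor went from 17 to 5 at steady state and from 20 to 1 upon LPS, those by dish from 6 to 0 and from 7 to 0, and the interactions from 15 to 2 (growth factor by LPS), 3 to 0 (dish by LPS) and 8 to 1 (dish by growth factor), since most of these differences were smaller than 2-fold. Library size alone gave 4 dish calls upon LPS and 5 dish by growth factor calls, and only the libraries of the comparison gave 5 dish by LPS calls. Library size moved the median of all genes to -0.53, -0.54, -0.83 and -0.73 in the LPS comparisons and to -0.29 for GM against M at steady state. It turned Nfkbid in GM against M on TC at steady state to -0.28, and the differences between LPS responses on TC to 0.22 for Nfkb1, 0.10 for Rel and 0.13 for Rela. With a left-out library, the lone library of its group is assumed to vary like the others. The calls then ranged from 16 to 18 and 18 to 20 by growth factor, 4 to 10 (10 without GM-TC replicate 1) and 4 to 8 (4 without M-TC-LPS replicate 1) by dish, 10 to 14 for growth factor by LPS, 1 to 6 for dish by LPS (6 without GM-TC replicate 2, 1 without GM-noTC replicate 2) and 5 to 9 for dish by growth factor (5 without M-noTC-LPS replicate 1). A replicate block changed no call (40, 17, 20, 6, 7, 15, 3 and 8), and deviations of libraries with the same number correlated between -0.0636 and 0.0858, so the numbers were not taken as pairs. The share of each member changed with the length used for 76 of 80 group means without division by length. With 2 libraries against 2, an exact permutation test cannot give a two-sided p below 0.333.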
